A study of Homo sapiens with 18 samples.

Results

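The plasminogen activation system of human mammary epithelial acini is described here through 5 genes, taken by name from tables of 42141 genes: PLAU and PLAT, which encode the urokinase-type and tissue-type activators, PLAUR, which encodes the urokinase receptor, and SERPINE2 and SERPINB2, which encode activator inhibitors. All 5 passed the filter on low counts that left 16911 genes for testing. Urokinase and tissue plasminogen activator cut the inactive precursor plasminogen into plasmin, a broad serine protease that degrades fibrin and other matrix proteins. The urokinase receptor is a membrane-anchored protein that holds urokinase at the cell surface, and inhibitors of the serpin family trap the activators in stable complexes. In mammary tissue the system is known for its part in tissue remodelling and in cell invasion.

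The RNA came from acini of MCF-10A.B2, an immortalised, non-tumour breast epithelial line that carries a chimeric HER2 receptor which the B/B homodimerizer, a bivalent small molecule, pairs and switches on. All groups were cultured on growth factor reduced Matrigel, a basement membrane gel, for 21 days, of which the last 14 days were without EGF and with the treatment. JNKKO acini received the dimerizer with TGF-β1, the dimerizer alone or ethanol (control), and wild-type (WT) acini received the same treatments, with 3 libraries in each of the 6 groups. TGF-β1, a cytokine known for inducing epithelial-mesenchymal transition, was given together with the dimerizer in every library that had it. JNKKO denotes a knockout of JNK, the stress-activated kinase family encoded by MAPK8, MAPK9 and MAPK10. The labels do not say which of these genes was edited or whether JNKKO cells were 1 clone. Nothing in them says that a group's libraries are separate cultures, so the p-values refer only to the variation among these libraries, which may be technical. The comparisons ask how expression in JNKKO and WT cells differs during transformation in 3D culture.

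Totals ran from 24243537 to 34499651 expected counts per library. MAPK9 lay between 42.1 and 53.9 counts per 1000000 (CPM) in the 9 JNKKO libraries, below the 57.1 to 68.4 CPM of the 9 WT libraries, while MAPK8 and MAPK10 overlapped between genotypes. For WT dimerizer + TGF-β1 replicate 3 the genotype field reads JNK knockout, against the title, and the title was followed. It had 65.4 CPM of MAPK9. Without it no value of the 5 genes moved by more than 0.123 on the log2 scale, and 1 call was lost, that of PLAUR in the interaction with TGF-β1. All 6 basal epithelial and all 5 general epithelial markers were detected in every library. Of the markers of other cell types, PTPRC reached at most 1.07 CPM, CD3E 0.0704 CPM, CDH5 0.0318 CPM and COL3A1 0.0907 CPM, whereas CD68 reached 47.5 CPM, KDR 42.5 CPM, PECAM1 12.2 CPM and DPT 7.88 CPM. By the chi-square per gene between replicates, WT dimerizer + TGF-β1 replicate 1 stood apart from the other libraries of its group (9.15 and 11.7, against 3.31 between those), as did JNKKO dimerizer replicate 2 (6.27 and 6.15, against 2.25). Without WT dimerizer + TGF-β1 replicate 1 the differences of the 5 genes moved by at most 0.102 on the log2 scale, and without JNKKO dimerizer replicate 2 by at most 0.0378, with 0 calls changed in each case. Mitochondrially encoded transcripts took 15.1% to 15.3% of counts in WT control and at most 10.9% in the other 15 libraries, with JNKKO dimerizer + TGF-β1 lowest at 5.24% to 5.56%.

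The 5 genes lie on 5 chromosomes, with positions in hg38 taken from GENCODE 29. PLAU is on the plus strand of chromosome 10 (73909177 to 73917497), PLAUR on the minus strand of chromosome 19 (43646095 to 43670547), SERPINE2 on the minus strand of chromosome 2 (223975112 to 224039319) and SERPINB2 on the plus strand of chromosome 18 (63871692 to 63903890). Promoter windows are shown for PLAUR and SERPINB2, which held the only matches found, and for PLAU, which moved with PLAUR across the 18 libraries. SERPINE2 moved with PLAU and PLAUR as well, but its windows held no match and are not shown. The choice of windows thus favours those with a match. The windows come from RefSeq (GRCh38.p14) and run 5′ to 3′ on the gene's strand. Each spans 250 bases before to 50 bases after the listed start. The windows shown all lie inside the GENCODE spans above, so a listed start is not the end of that span. Matches to AP-1 (TGANTCA) and to the TATA box (TATAAA) are in capitals. The PLAUR window is chr19:43670120-43670419 (minus strand), the SERPINB2 window chr18:63887455-63887754 (plus strand), and the PLAU window, the second of 2 listed starts, chr10:73910882-73911181 (plus strand).
PLAUR: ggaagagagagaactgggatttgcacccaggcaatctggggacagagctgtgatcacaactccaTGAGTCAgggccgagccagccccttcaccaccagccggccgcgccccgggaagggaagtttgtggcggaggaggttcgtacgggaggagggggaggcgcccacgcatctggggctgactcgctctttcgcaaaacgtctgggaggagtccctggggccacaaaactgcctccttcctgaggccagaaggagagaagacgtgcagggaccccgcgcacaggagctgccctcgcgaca
SERPINB2: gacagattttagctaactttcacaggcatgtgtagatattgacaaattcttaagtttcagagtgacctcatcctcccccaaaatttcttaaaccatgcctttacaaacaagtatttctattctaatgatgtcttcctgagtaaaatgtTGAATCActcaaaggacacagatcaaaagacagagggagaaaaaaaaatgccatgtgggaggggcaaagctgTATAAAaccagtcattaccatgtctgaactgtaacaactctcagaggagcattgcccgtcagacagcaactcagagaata
PLAU: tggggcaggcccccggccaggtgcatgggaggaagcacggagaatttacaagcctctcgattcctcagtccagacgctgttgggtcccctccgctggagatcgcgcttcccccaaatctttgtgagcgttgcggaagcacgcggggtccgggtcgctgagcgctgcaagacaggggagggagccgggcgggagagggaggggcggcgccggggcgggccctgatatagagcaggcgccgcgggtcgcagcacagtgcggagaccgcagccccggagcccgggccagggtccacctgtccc

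AP-1 is the dimer of JUN and FOS proteins, and JUN is the substrate that gave JNK its name. On both strands, 7 motifs were searched in 6 windows of 4 genes (PLAU, PLAUR, SERPINE2 and SERPINB2). PLAT was not searched, because the promoter set used held no entry for it. With positions counted from the listed RefSeq start, not from the GENCODE span, PLAUR held 1 AP-1 match at -186. SERPINB2 held 1 AP-1 match at -102 and 1 TATA box at -30. Of 35116 promoters of the same length, 7.71% held an AP-1 match and 11.5% a TATA box. No match was found for the CRE (TGACGTCA, in 1.85% of promoters), the SMAD box (GTCTAGAC, 0.202%), the TEAD motif (GGAATG, 14%), the SP1 motif (GGGGCGGGG, 15.7%) or the ETS motif (CCGGAAGT, 4.14%). The searched motifs do not overlap in these windows, and a match describes letters only.

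Urokinase RNA (PLAU) was higher in JNKKO acini than in WT acini under every treatment and higher with each added treatment in both genotypes. JNKKO dimerizer + TGF-β1 libraries held 649, 619 and 623 CPM of PLAU, JNKKO dimerizer libraries 140.2, 134 and 144 CPM, and JNKKO control libraries 33.1, 32.7 and 38.0 CPM. WT dimerizer + TGF-β1 libraries held 145, 173 and 183 CPM, WT dimerizer libraries 56.9, 53.9 and 53.9 CPM, and WT control libraries 14.98, 13.9 and 18.5 CPM. No 2 groups overlapped, although the lowest WT dimerizer + TGF-β1 library lay close to the highest JNKKO dimerizer library. The order was JNKKO dimerizer + TGF-β1, WT dimerizer + TGF-β1, JNKKO dimerizer, WT dimerizer, JNKKO control and WT control, and the first mean was 39.8 times the last. In transcripts per 1000000 (TPM), which corrects for transcript length, the groups stood in the same order, at 427 ± 18.7 TPM in JNKKO dimerizer + TGF-β1 and 9.10 ± 1.31 TPM in WT control (SD, n = 3).

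With dimerizer, PLAU rose by 2.01 ± 0.09 (log2 difference ± SE) in JNKKO acini against JNKKO control (adjusted p = 3.13e-10, edgeR's quasi-likelihood test with Benjamini-Hochberg adjustment over all genes, as for every adjusted p below) and by 1.80 ± 0.10 in WT acini against WT control (adjusted p = 1.72e-09, edgeR). The difference between these responses, JNKKO minus WT, was 0.22 ± 0.14 and did not pass (adjusted p = 0.244, edgeR). TGF-β1 on top of dimerizer was followed by a further rise of 2.18 ± 0.08 in JNKKO acini (adjusted p = 6.96e-12, edgeR) and of 1.60 ± 0.09 in WT acini (adjusted p = 3.51e-10, edgeR). That difference in response, 0.57 ± 0.12, passed (adjusted p = 0.00188, edgeR). Dimerizer + TGF-β1 against control gave 4.19 ± 0.10 in JNKKO acini and 3.40 ± 0.10 in WT acini (adjusted p = 7.03e-15 and 2.74e-13, edgeR). JNKKO acini exceeded WT acini by 1.92 ± 0.08 with dimerizer + TGF-β1, by 1.35 ± 0.09 with dimerizer and by 1.13 ± 0.11 in control (adjusted p = 6.29e-11, 1.61e-08 and 8.12e-07, edgeR). The highest PLAU stood in the group with the lowest mitochondrial share and the lowest PLAU in the group with the highest. With the 13 protein-coding mitochondrial genes removed before library sizes, the genotype difference was 1.94 with dimerizer + TGF-β1 and 1.12 in control. Any mitochondrial ribosomal or transfer RNA genes, which the share includes, were not removed. C10orf55 lies on the opposite strand across PLAU, and PLAU's expected counts were not whole in any of the 18 libraries, unlike those of the other 4 genes, so some of its reads were divided with another gene. The use of strand in counting is not given in the sources used here. C10orf55 was assigned at most 6.79% of the PLAU count in a library.

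Tissue plasminogen activator RNA (PLAT) took the opposite sign from PLAU in 6 of the 9 comparisons of groups, and its response to dimerizer had opposite signs in the 2 genotypes. PLAT stood at 41.2, 33.2 and 40.4 CPM in JNKKO dimerizer + TGF-β1 libraries, at 71.5, 69.5 and 68.5 CPM in JNKKO dimerizer libraries, and at 139, 143 and 136 CPM in JNKKO control libraries. It stood at 19.4, 24.1 and 24.3 CPM in WT dimerizer + TGF-β1 libraries, at 85.3, 99.9 and 88.0 CPM in WT dimerizer libraries, and at 47.0, 58.0 and 51.5 CPM in WT control libraries. JNKKO control was the highest group and WT dimerizer + TGF-β1 the lowest, 6.17 times apart, and no neighbours in the order overlapped in CPM. The gene lies on the minus strand of chromosome 8 (42175233 to 42207724, hg38). In TPM, WT control and JNKKO dimerizer + TGF-β1 overlapped.

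PLAT fell by 0.998 ± 0.09 (log2) with dimerizer in JNKKO acini (adjusted p = 5.43e-07, edgeR) and rose by 0.80 ± 0.09 with dimerizer in WT acini (adjusted p = 3.46e-06, edgeR). All 3 JNKKO dimerizer libraries lay below all 3 JNKKO control libraries, and all 3 WT dimerizer libraries lay above all 3 WT control libraries. The interaction of genotype with dimerizer was -1.80 ± 0.13 (adjusted p = 4.55e-08, edgeR). With TGF-β1 added, PLAT fell by 0.87 ± 0.10 in JNKKO acini and by 2.01 ± 0.10 in WT acini against dimerizer alone (adjusted p = 2.01e-06 and 1.21e-10, edgeR), and these responses differed by 1.14 ± 0.14 (adjusted p = 2.08e-05, edgeR). JNKKO acini had more PLAT than WT acini with dimerizer + TGF-β1 (0.76 ± 0.11, adjusted p = 3.02e-05, edgeR) and in control (1.42 ± 0.09, adjusted p = 8.49e-09, edgeR). Against control, dimerizer + TGF-β1 gave -1.87 ± 0.10 in JNKKO acini and -1.21 ± 0.10 in WT acini, and both passed (adjusted p = 1.34e-10 and 9.14e-08, edgeR). With dimerizer alone, JNKKO acini had less PLAT than WT acini (-0.38 ± 0.09, adjusted p = 0.00376, edgeR).

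Urokinase receptor RNA (PLAUR) followed PLAU over a smaller range. JNKKO dimerizer + TGF-β1 libraries held 47.5, 49.0 and 50.2 CPM of PLAUR, JNKKO dimerizer libraries 24.0, 23.3 and 25.1 CPM, and JNKKO control libraries 9.65, 10.1 and 10.4 CPM. In WT acini the libraries held 20.4, 24.9 and 25.1 CPM with dimerizer + TGF-β1, 10.2, 8.96 and 9.61 CPM with dimerizer, and 7.62, 6.10 and 7.55 CPM in control. JNKKO dimerizer + TGF-β1 was highest, 6.90 times WT control. In CPM, JNKKO dimerizer overlapped with WT dimerizer + TGF-β1, and JNKKO control overlapped with WT dimerizer. In TPM, WT dimerizer + TGF-β1 lay above JNKKO dimerizer without overlap (ratio of means 1.19), while WT dimerizer and JNKKO control again overlapped. Neither pair was tested.

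PLAUR rose with dimerizer by 1.27 ± 0.08 (log2) in JNKKO acini and by 0.43 ± 0.09 in WT acini (adjusted p = 4.28e-13 and 0.000229, edgeR), and the interaction, 0.83 ± 0.12, passed (adjusted p = 3.2e-06, edgeR). Adding TGF-β1 was followed by a rise of 1.02 ± 0.07 in JNKKO acini and 1.30 ± 0.08 in WT acini (adjusted p = 1.73e-13 and 1.29e-14, edgeR). The responses to TGF-β1 differed by -0.28 ± 0.11 (adjusted p = 0.0445, edgeR), a call that was lost in most alternative analyses and without the library whose genotype tag contradicts its title (-0.20, adjusted p = 0.179, edgeR). Against control, PLAUR rose with dimerizer + TGF-β1 by 2.28 ± 0.08 in JNKKO acini and by 1.73 ± 0.08 in WT acini (adjusted p = 1.17e-20 and 7.8e-17, edgeR). PLAUR was higher in JNKKO acini than in WT acini by 1.06 ± 0.07 with dimerizer + TGF-β1, by 1.33 ± 0.08 with dimerizer and by 0.50 ± 0.09 in control (adjusted p = 1.71e-13, 9.36e-14 and 6.13e-05, edgeR). PLAU and PLAUR had a Pearson correlation of 0.978 over the 18 libraries, computed on log2 CPM and given as a description, since the libraries share their groups.

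**Figure D1:**
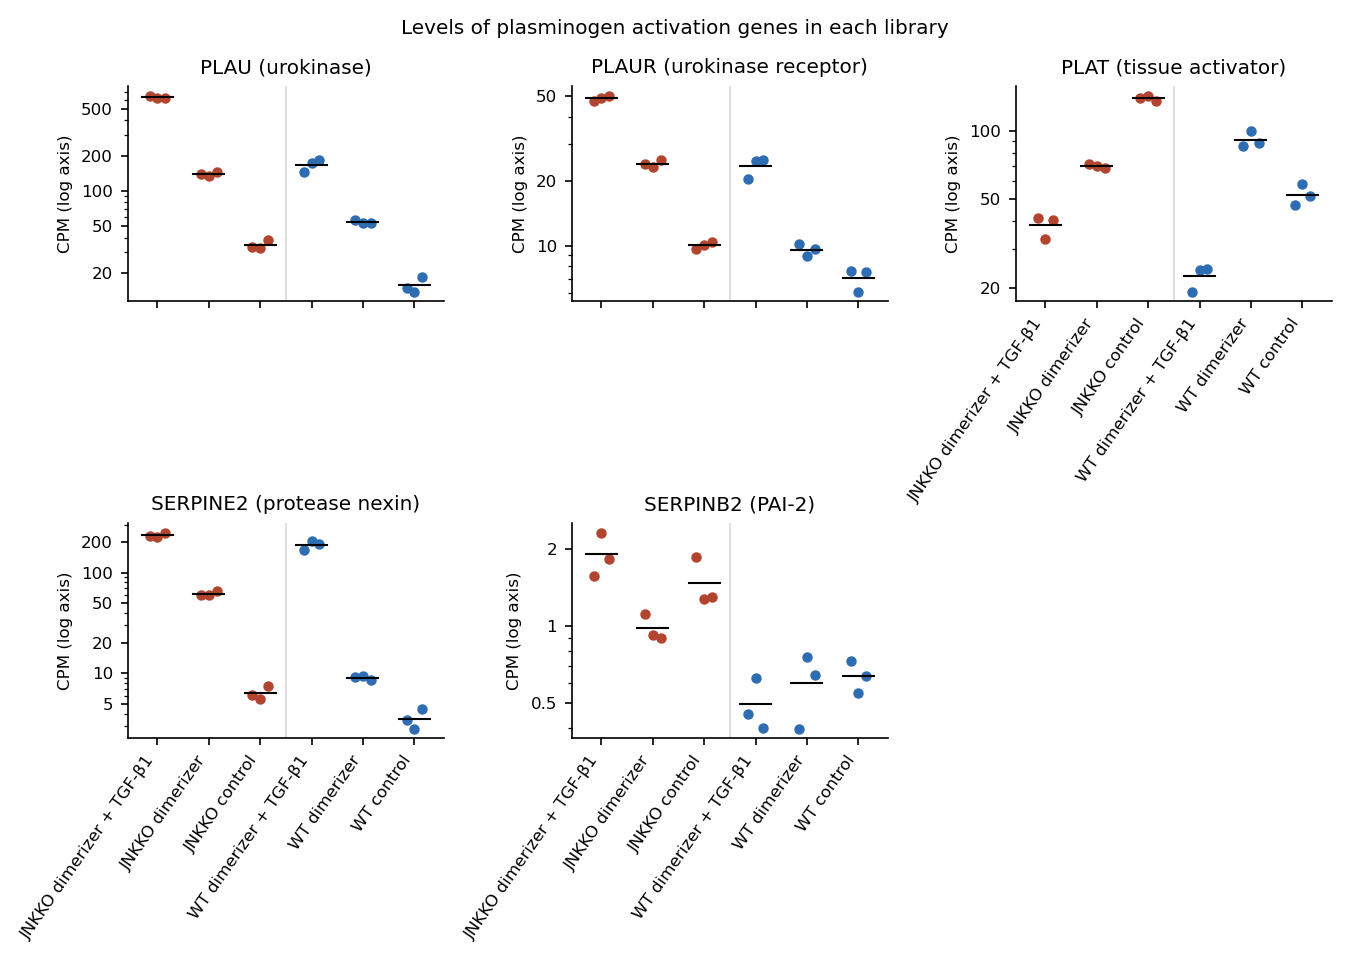
CPM (log axis) of the 5 genes in each of the 18 libraries, by group, with points for libraries and bars for group means (n = 3). PLAU, PLAUR and SERPINE2 are highest in JNKKO dimerizer + TGF-β1, PLAT is highest in JNKKO control, and all 9 JNKKO libraries lie above all 9 WT libraries for SERPINB2.

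SERPINE2 encodes protease nexin-1, a secreted inhibitor of thrombin, urokinase and plasmin, and it had the widest range of the 5 genes. JNKKO dimerizer + TGF-β1 libraries held 230.4, 223 and 249 CPM, JNKKO dimerizer libraries 60.3, 59.7 and 66.3 CPM, and JNKKO control libraries 6.16, 5.61 and 7.47 CPM. WT dimerizer + TGF-β1 libraries held 166, 207 and 193 CPM, WT dimerizer libraries 9.30, 9.39 and 8.62 CPM, and WT control libraries 3.46, 2.84 and 4.40 CPM. No neighbouring groups overlapped, and the highest mean was 65.6 times the lowest. With dimerizer alone, JNKKO acini stood apart from WT acini by 2.77 ± 0.11 on the log2 scale (adjusted p = 2.70e-11, edgeR). With TGF-β1 added the genotype difference was 0.31 ± 0.08 (adjusted p = 0.00392, edgeR), and it did not pass with limma on log2(TPM + 0.1) (0.27, adjusted p = 0.083) or on log2(TPM + 1) without the filter (0.27, adjusted p = 0.0793). In control it was 0.85 ± 0.18 (adjusted p = 0.00135, edgeR).

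Dimerizer raised SERPINE2 by 3.28 ± 0.12 in JNKKO acini and by 1.35 ± 0.17 in WT acini (adjusted p = 9.04e-12 and 5.15e-06, edgeR), an interaction of 1.93 ± 0.22 (adjusted p = 5.41e-06, edgeR). TGF-β1 raised it further by 1.91 ± 0.09 in JNKKO acini and by 4.38 ± 0.11 in WT acini (adjusted p = 1.76e-11 and 5.71e-15, edgeR), an interaction of -2.46 ± 0.14 (adjusted p = 3.61e-09, edgeR). The larger step came with dimerizer in JNKKO acini and with TGF-β1 in WT acini. Both steps together gave 5.19 ± 0.11 in JNKKO acini and 5.73 ± 0.12 in WT acini against their controls (adjusted p = 1.37e-15 and 1.67e-15, edgeR).

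SERPINB2 encodes plasminogen activator inhibitor-2, a serpin that is largely kept inside cells, and it was near the lower end of what these libraries resolve. JNKKO dimerizer + TGF-β1 libraries held 1.58, 2.31 and 1.83 CPM, JNKKO dimerizer libraries 1.11, 0.926 and 0.901 CPM, and JNKKO control libraries 1.87, 1.27 and 1.30 CPM. WT dimerizer + TGF-β1 libraries held 0.453, 0.630 and 0.401 CPM, WT dimerizer libraries 0.398, 0.758 and 0.646 CPM, and WT control libraries 0.730, 0.549 and 0.638 CPM. Every JNKKO library lay above every WT library, but these values rest on 12 to 69 counts per library. SERPINB10, on the same strand and overlapping in annotation, had 0 to 5 counts. JNKKO exceeded WT by 1.95 ± 0.27 with dimerizer + TGF-β1 and by 1.21 ± 0.27 in control (adjusted p = 5.03e-07 and 0.000393, edgeR), whereas the 0.68 ± 0.28 with dimerizer did not pass (adjusted p = 0.0531, edgeR) unless WT dimerizer replicate 2 was left out (0.87). Dimerizer gave -0.61 ± 0.25 in JNKKO acini and -0.08 ± 0.29 in WT acini, neither of which passed (adjusted p = 0.0584 and 0.846, edgeR). TGF-β1 raised SERPINB2 by 0.97 ± 0.25 in JNKKO acini (adjusted p = 0.00119, edgeR) and gave -0.30 ± 0.30 in WT acini (adjusted p = 0.4, edgeR). Against control, dimerizer + TGF-β1 gave 0.37 ± 0.24 in JNKKO acini and -0.37 ± 0.30 in WT acini, neither of which passed (adjusted p = 0.175 and 0.294, edgeR). The interaction with TGF-β1, 1.27 ± 0.39, passed (adjusted p = 0.0128, edgeR) but was lost without WT dimerizer replicate 2 (1.07, adjusted p = 0.0583, edgeR).

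Counted over comparisons, the 5 genes were more often higher than lower in JNKKO acini and with each treatment. In dimerizer against control, 3 were higher and 1 lower in JNKKO acini, where 22.5% of the tested genes were higher and 17.9% lower, and 4 were higher and 0 lower in WT acini, where 30.3% of the tested genes were higher and 25.6% lower. In dimerizer + TGF-β1 against dimerizer, 4 were higher and 1 lower in JNKKO acini (30.5% and 30.3% of tested genes), and 3 were higher and 1 lower in WT acini (33.4% and 31.8%). In dimerizer + TGF-β1 against control, 3 were higher and 1 lower in JNKKO acini (33.8% and 33.4%) and in WT acini alike (31.3% and 30.5%). In JNKKO against WT, 5 were higher and 0 lower with dimerizer + TGF-β1 (26.5% and 26.4%), 3 were higher and 1 lower with dimerizer (21.6% and 18.5%), and 5 were higher and 0 lower in control (25.8% and 23.5%). In the interaction with dimerizer, the JNKKO response minus the WT response was positive for 2 genes, PLAUR and SERPINE2, and negative for 1, PLAT (21.4% and 21.2% of tested genes). In the interaction with TGF-β1 it was positive for 3, PLAU, PLAT and SERPINB2, and negative for 2, PLAUR and SERPINE2 (14.1% and 18.8%). The sign of an interaction is not its size, since PLAT, positive with TGF-β1, fell in both genotypes and fell less in JNKKO acini. Without WT dimerizer replicate 2, 3 of these 5 interactions with TGF-β1 passed. The median log2 difference of the 5 genes was 1.06 in JNKKO against WT with dimerizer + TGF-β1, 1.33 with dimerizer and 1.13 in control. Over all tested genes the median was at most 0.033 from 0 in any comparison, which the scaling of the libraries (TMM) largely brings about. The 5 genes were also chosen with earlier results of these data known, so these medians are a description only. Comparisons that share a group share its libraries, so their counts are not independent. In bulk RNA, fewer cells that express a gene and less RNA per cell cannot be told apart.

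**Figure D2:**
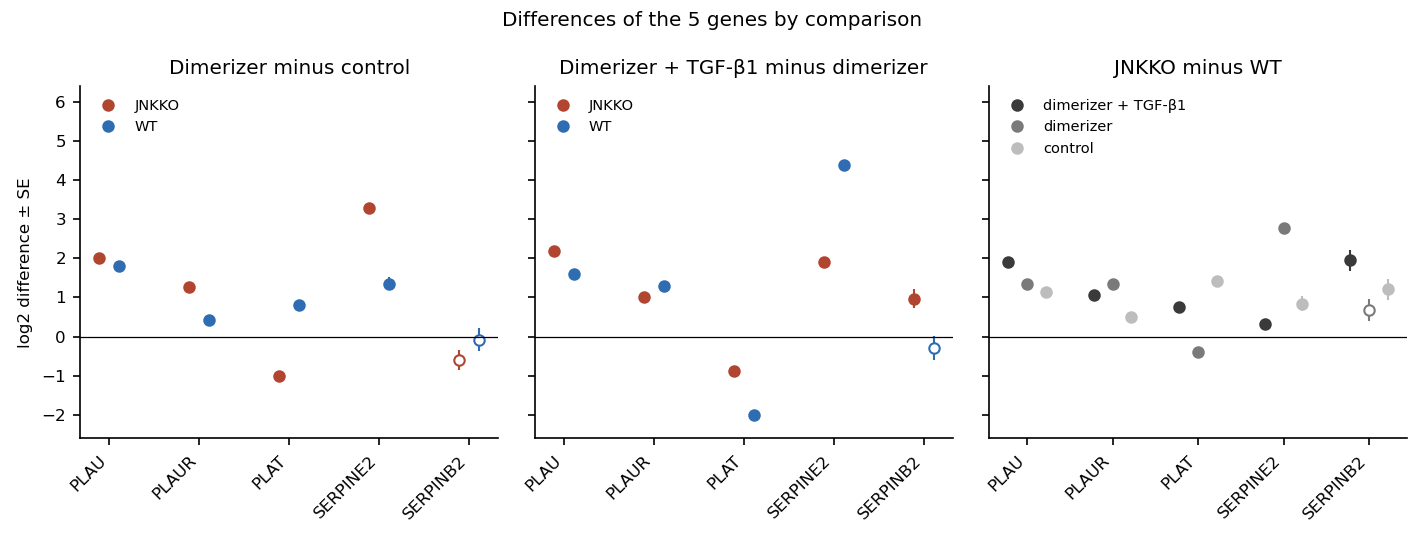
Log2 differences (± SE, edgeR) of the 5 genes for dimerizer minus control, dimerizer + TGF-β1 minus dimerizer, and JNKKO minus WT; filled points passed the threshold of 0.05 on the adjusted p and open points did not. PLAT is the gene whose response to dimerizer has opposite signs in JNKKO and WT acini, and SERPINE2 shows 1.91 in JNKKO acini and 4.38 in WT acini when TGF-β1 was added.

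Because TPM allows levels of different genes to be set against each other, the balance within the system was described from the deposited TPM. PLAU made up 95.0% ± 0.479 of the summed PLAU and PLAT TPM in JNKKO dimerizer + TGF-β1, 69.8% ± 1.02 in JNKKO dimerizer and 22.2% ± 1.93 in JNKKO control (SD, n = 3). In WT acini it made up 89.4% ± 0.220 with dimerizer + TGF-β1, 41.0% ± 2.54 with dimerizer and 25.7% ± 3.67 in control. PLAT was thus the more abundant activator RNA in both controls and in WT dimerizer, and PLAU in the other 3 groups. The controls overlapped, and all 3 JNKKO dimerizer libraries lay above all 3 WT dimerizer libraries. The summed TPM of both activators was 449 ± 21.6 in JNKKO dimerizer + TGF-β1, 113 ± 1.93 in JNKKO dimerizer and 91.1 ± 0.457 in JNKKO control, against 130 ± 15.1, 83.5 ± 3.94 and 35.4 ± 2.59 in the matching WT groups.

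PLAU set against SERPINE2 on the TPM scale lay higher in JNKKO than in WT acini with dimerizer + TGF-β1 and in control, and lower with dimerizer alone, with no overlap of libraries. These ratios are descriptions without a test, and RNA ratios give no protease activity. The ratio was 2.45 ± 0.156 in JNKKO dimerizer + TGF-β1, 2.05 ± 0.0700 in JNKKO dimerizer and 4.95 ± 0.352 in JNKKO control (SD, n = 3). It was 0.804 ± 0.0535 in WT dimerizer + TGF-β1, 5.47 ± 0.237 in WT dimerizer and 4.06 ± 0.340 in WT control. WT dimerizer + TGF-β1 was thus the group in which SERPINE2 exceeded PLAU, in all 3 of its libraries. The PLAU to PLAUR ratio was 7.50 ± 0.343 in JNKKO dimerizer + TGF-β1 and 4.10 ± 0.0981 in WT dimerizer + TGF-β1, while the dimerizer groups, at 3.31 ± 0.0503 in JNKKO and 3.22 ± 0.165 in WT, overlapped. In control the PLAU to PLAUR ratio was 1.92 ± 0.0905 in JNKKO and 1.25 ± 0.146 in WT, with no overlap of libraries.

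**Figure D3:**
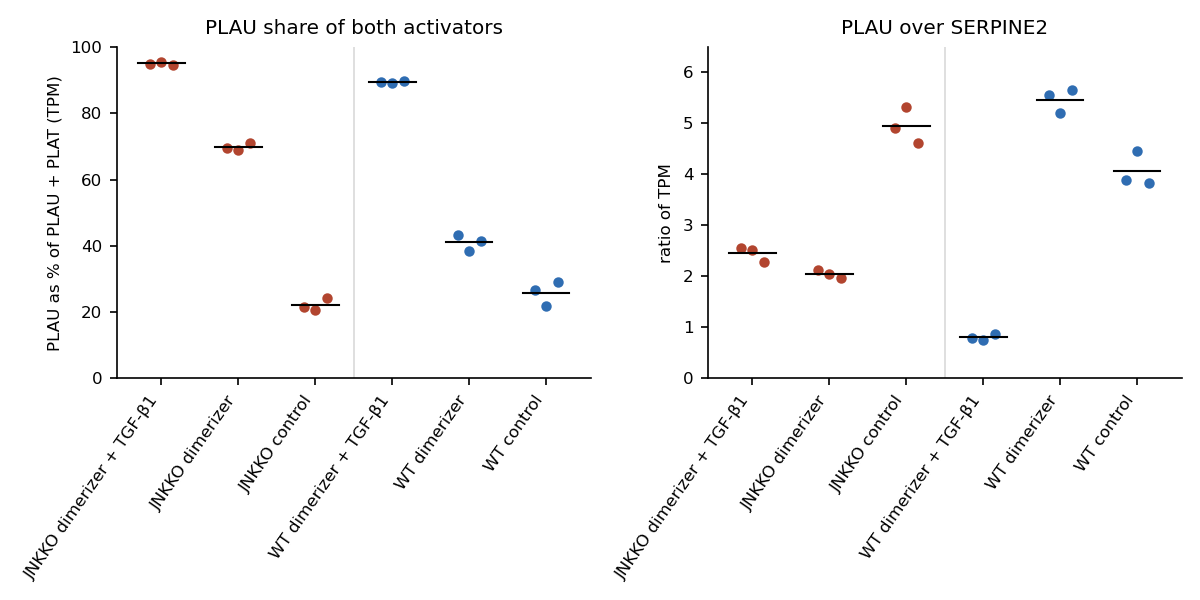
Ratios of deposited TPM in each of the 18 libraries, by group, with points for libraries and bars for group means. The PLAU share of both activators is 95.0% in JNKKO dimerizer + TGF-β1 and 22.2% in JNKKO control, and the ratio of PLAU to SERPINE2 is lowest in WT dimerizer + TGF-β1, at 0.804.

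Of 29 further genes of the pathway in 5 lists, 19 could be tested. The 10 others (PLG, VTN, FGA, FGB, HGF, KLKB1, HPN, A2M, CPB2 and TFPI2) were too low, and they include plasminogen itself, with at most 4 counts of PLG in a library, and the fibrinogen chains FGA and FGB, with 0 counts throughout. Among the 19 tested, dimerizer against control gave 8 higher and 3 lower in JNKKO acini (22.5% and 17.9% of all tested genes) and 9 higher and 6 lower in WT acini (30.3% and 25.6%). Adding TGF-β1 gave 10 higher and 4 lower in JNKKO acini (30.5% and 30.3%) and 9 higher and 5 lower in WT acini (33.4% and 31.8%). Dimerizer + TGF-β1 against control gave 8 higher and 3 lower in JNKKO acini (33.8% and 33.4%) and 8 higher and 6 lower in WT acini (31.3% and 30.5%). JNKKO against WT gave 11 higher and 5 lower with dimerizer + TGF-β1 (26.5% and 26.4%), 9 higher and 5 lower with dimerizer (21.6% and 18.5%), and 7 higher and 7 lower in control (25.8% and 23.5%). The 19 genes had a median log2 difference of 0.21 in JNKKO against WT with dimerizer + TGF-β1, 0.08 with dimerizer and 0.05 in control.

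The plasminogen receptors ANXA2, S100A10, ENO1 and PLGRKT, which hold plasminogen at the cell surface, included 3 of 4 higher and 0 lower in JNKKO than in WT acini with dimerizer + TGF-β1 (26.5% and 26.4% of tested genes), 4 higher and 0 lower with dimerizer (21.6% and 18.5%), and 1 higher and 1 lower in control (25.8% and 23.5%). ANXA2 (annexin A2), whose partner is the S100A10 light chain, averaged 1738 ± 89.5 CPM in JNKKO dimerizer and 865 ± 21.3 CPM in JNKKO control (SD, n = 3), and rose with dimerizer by 1.01 ± 0.05 (adjusted p = 5.71e-13, edgeR). The interaction of genotype with dimerizer was 0.80 ± 0.07 (adjusted p = 6.93e-09, edgeR). S100A10 averaged 608 ± 59.3 CPM in JNKKO dimerizer, 269.8 ± 3.19 CPM in JNKKO control and 346 ± 3.91 CPM in WT dimerizer, and was higher in JNKKO dimerizer than in WT dimerizer by 0.81 ± 0.06 (adjusted p = 1.07e-09, edgeR). ENO1, the glycolytic enzyme alpha-enolase, fell by 0.36 ± 0.03 in WT dimerizer against WT control (adjusted p = 3.92e-11, edgeR).

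Of the proteases that can activate pro-urokinase, 4 of 6 were tested. CTSB, a lysosomal cysteine protease, averaged 1314 ± 7.45, 679 ± 42.4 and 351 ± 12.5 CPM in JNKKO dimerizer + TGF-β1, dimerizer and control, and 1209 ± 32.6, 353 ± 15.5 and 469 ± 13.8 CPM in the matching WT groups. It rose with dimerizer in JNKKO acini by 0.95 ± 0.04 (adjusted p = 9.77e-17, edgeR), the interaction with dimerizer was 1.36 ± 0.06 (adjusted p = 7.45e-17, edgeR), and that with TGF-β1 was -0.82 ± 0.06 (adjusted p = 7.64e-12, edgeR). F12, coagulation factor XII, fell with TGF-β1 by 1.04 ± 0.08 in JNKKO acini and by 1.38 ± 0.07 in WT acini (adjusted p = 8.81e-13 and 8.45e-16, edgeR). With dimerizer, F12 gave 0.05 ± 0.07 in JNKKO acini, which did not pass (adjusted p = 0.606, edgeR), and rose in WT acini by 1.05 ± 0.07 (adjusted p = 8.05e-13, edgeR). ST14, the membrane serine protease matriptase, fell with dimerizer in JNKKO acini by 0.26 ± 0.07 and rose in WT acini by 0.93 ± 0.07 (adjusted p = 0.00426 and 9.8e-10, edgeR).

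Clearance receptors and co-receptors take up the activators, their inhibitor complexes or the urokinase receptor. MRC2, the collagen-binding endocytic receptor that associates with the urokinase receptor, rose with TGF-β1 by 2.74 ± 0.07 in JNKKO acini and by 2.11 ± 0.07 in WT acini (adjusted p = 3.27e-17 and 9.12e-16, edgeR), reaching 161 ± 8.07 CPM in JNKKO acini and 115 ± 11.9 CPM in WT acini. VLDLR averaged 10.9 ± 0.404 CPM in JNKKO dimerizer + TGF-β1 and 1.70 ± 0.382 CPM in WT dimerizer + TGF-β1, a difference of 2.68 ± 0.18 (adjusted p = 5.67e-13, edgeR). SORL1, a sorting receptor that binds urokinase and its receptor, averaged 61.7 ± 3.91 CPM in JNKKO dimerizer + TGF-β1 and 138 ± 13.5 CPM in WT dimerizer + TGF-β1, a difference of -1.17 ± 0.08 (adjusted p = 6.28e-10, edgeR). In the other treatments SORL1 was higher in JNKKO than in WT acini, by 0.69 ± 0.08 with dimerizer and by 1.26 ± 0.08 in control (adjusted p = 1.83e-06 and 1.35e-09, edgeR). LRP1, the main clearance receptor of activator and serpin complexes, was lower in JNKKO than in WT acini with dimerizer + TGF-β1, at -0.22 ± 0.04 (adjusted p = 7.70e-06, edgeR). It was higher in JNKKO acini by 0.33 ± 0.04 with dimerizer and by 0.60 ± 0.04 in control (adjusted p = 3.66e-08 and 7.89e-14, edgeR).

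**Figure D4:**
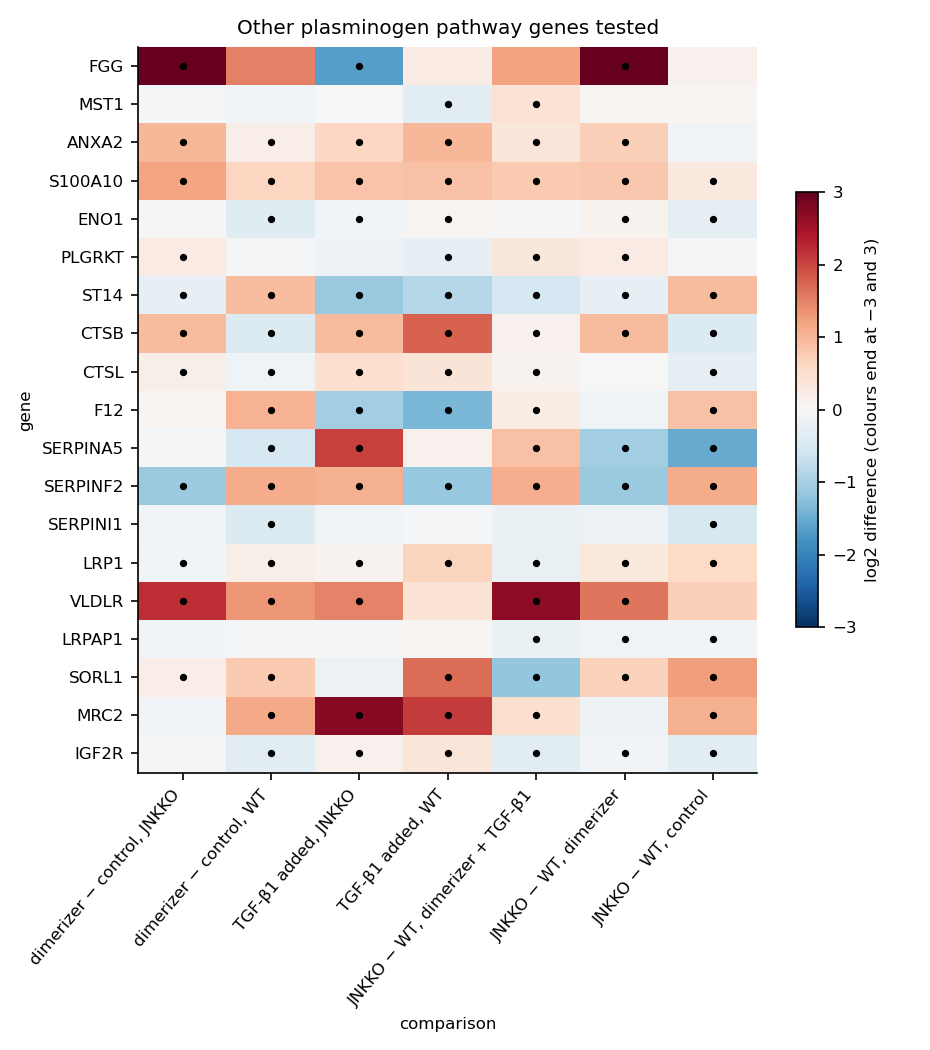
Log2 differences (edgeR, colour scale) of the 19 tested pathway genes (rows) in 7 comparisons of groups (columns); dots mark values that passed the threshold of 0.05 on the adjusted p. MRC2 is higher with TGF-β1 in both genotypes, at 2.74 in JNKKO acini and 2.11 in WT acini.

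Likeness of pattern was measured as Pearson's r of log2 CPM over the 18 libraries among 10517 genes, as a description, since the libraries share group structure. Among the closest for PLAU were ARPC3 (0.992), S100A10 (0.992) and LGALS1 (0.990), for PLAUR PHC2 (0.995) and PFKP (0.990), and for PLAT MAOB (0.975), PHF19 (0.966) and HMGB2 (0.966). Among the closest for SERPINE2 were LRRC8C (0.997) and CSF1R (0.994). SERPINB2 had lower values, with MGMT (0.882), PTMA (0.878) and SULT1E1 (0.869). Among the 5 genes, SERPINE2 had r = 0.946 with PLAU and 0.952 with PLAUR, PLAT was negative with all 3, from -0.51 with PLAU to -0.70 with SERPINE2, and SERPINB2 lay between 0.192 and 0.432 with the others.

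The marker lists of other cell types also moved with some groups, and their part in the values above was not tested. Summed over 6 immune markers, JNKKO dimerizer + TGF-β1 libraries held 41.6 to 46.7 CPM and JNKKO dimerizer libraries 46.3 to 51.5 CPM, against 11.7 to 18.7 CPM in the other 4 groups, mostly from CD68, which reached 47.5 CPM. The 6 fibroblast markers summed to 8.31 to 9.29 CPM in JNKKO dimerizer + TGF-β1 libraries and to at most 1.48 CPM elsewhere, mostly from DPT at up to 7.88 CPM, with COL3A1 at 0 in that group. The 5 endothelial markers summed to 14.8 to 44.8 CPM, mostly from KDR, with CDH5 at 0 in 4 of the 6 groups.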

How the data were processed

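Per the labels' protocols, RNA from a miRNeasy kit with DNase went through oligo(dT) beads and ribosomal RNA depletion, random hexamers primed the cDNA, and both ends were sequenced. The submitters' processing notes name cutadapt, RSEM and hg38. Not given in the sources used here: aligner, annotation, versions, strand setting. The authors deposited expected counts, which RSEM estimates and which were not whole in a median of 9.35% of values per library, and TPM, which per the file headers are a separate table and summed to 1000000 in each library.

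Rounded expected counts were compared by the quasi-likelihood F test in edgeR 4.0.16 in R 4.3.3, with 1 mean per group, all 18 libraries in 1 model, TMM factors (0.962 to 1.04) and edgeR's default filter, which kept 16911 genes. The Benjamini-Hochberg method ran over all genes of each of 11 comparisons at a threshold of 0.05. CPM used the TMM-scaled library sizes, and log2 CPM a prior count of 2. The test itself gives no SE. Each SE of a log2 difference was derived as its size divided by the square root of the F value. The common coefficient of variation between replicates, which edgeR terms biological, came to 4.47%, and it may be technical here. No replicates agreed within sampling noise (chi-square per gene from 2.25 to 11.7), which does not show that they were separate cultures. Each library counted once in the model. Depth limits SERPINB2 most, with 12 to 69 counts per library. Alternatives were DESeq2 1.42.0, RLE factors, no filter, a replicate block, only the groups compared, limma 3.58.1 on log2(TPM + 1), with and without the filter, and log2(TPM + 0.1), and each replicate left out in turn. A further alternative, chosen after seeing the data, was removal of the 13 protein-coding mitochondrial genes. The fitting code was tested on simulated data in which few genes changed, in a single group. That test therefore does not cover changes as broad as those called here. Other software was matplotlib 3.10.9, scipy 1.17.1, pandas 2.3.3, numpy 2.4.6 and Python 3.11.15.

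The 5 genes, the pathway and marker lists and the tests were chosen with earlier results of these data known. Named beside the 5 genes were, per comparison, up to 3 called pathway genes with the smallest adjusted p among those averaging 5 CPM or more in the higher group, and up to 3 genes most like each in pattern. Some genes that these rules take are not reported here. Promoters were taken from RefSeq tables (GRCh38.p14) and searched for motifs on both strands.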

Additional observations from a re-analysis of the deposited data

Results flagged for a closer look

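These results are listed because the response to a treatment, or the step when TGF-β1 was added, differed between JNKKO and WT acini in the test of the interaction itself (JNKKO minus WT, log2, edgeR's quasi-likelihood test, adjusted over all genes). For dimerizer against control, the interaction was 0.83 for PLAUR, -1.80 for PLAT and 1.93 for SERPINE2. Among the other pathway genes it was 0.80 for ANXA2, 1.36 for CTSB and -0.997 for F12. For dimerizer + TGF-β1 against dimerizer, it was 0.57 for PLAU, -0.28 for PLAUR, 1.14 for PLAT, -2.46 for SERPINE2 and 1.27 for SERPINB2. Among the other pathway genes it was -0.82 for CTSB, -0.55 for LRP1 and -1.86 for SORL1. With TGF-β1, the call of PLAUR held in only 6 of 21 alternatives. That of SERPINB2 held in 20 of 21 and was lost without WT dimerizer replicate 2. PLAT is the gene of the 5 whose dimerizer response had opposite signs in the 2 genotypes and passed in both. For SERPINE2 the interaction was positive with dimerizer and negative with TGF-β1. Both interactions use the same dimerizer libraries, so their values are not independent.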

How the results depend on the processing

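Over 885 alternative values of the 5 genes, 857 kept direction and side of the threshold, 18 lost the call, 6 gained it and 4 changed sign. The sign changes all belong to SERPINB2 in WT dimerizer against WT control, a difference that did not pass: 0.0026 with limma on log2(TPM + 1), with and without the filter, 0.03 without WT control replicate 1 and 0.13 without WT dimerizer replicate 1, within a range of -0.27 to 0.13 when a replicate was left out. PLAUR in the interaction with TGF-β1 was called in 6 of 21 alternatives, with values from -0.37 to -0.12. SERPINE2 in JNKKO against WT with dimerizer + TGF-β1 was called in 13 of 15 alternatives, with values from 0.23 to 0.40, and lost its call with limma on log2(TPM + 0.1) and on log2(TPM + 1) without the filter (0.27 in both). SERPINB2 gained calls in JNKKO dimerizer against JNKKO control with limma on log2(TPM + 1) (-0.29), in JNKKO dimerizer + TGF-β1 against JNKKO control on the TPM scales (0.33 to 0.54), and in JNKKO against WT with dimerizer without WT dimerizer replicate 2 (0.87). PLAU gained a call in the interaction with dimerizer with no filter on low counts (0.22). The cause was not tested in any of these. The number of the 5 genes called in the interaction with TGF-β1 was 5, and 3 to 5 when a replicate was left out, with 3 without WT dimerizer replicate 2. The other counts of called genes stayed within 1.5 times of the main count under the alternatives run. On the TPM scales the median of all genes lay up to 0.174 from 0 with log2(TPM + 1) and 0.231 with log2(TPM + 0.1). With log2(TPM + 1) without the filter it lay up to 0.0355 from 0, and in the main analysis up to 0.033.

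Same-numbered libraries shared little deviation from their group means, with correlations of -0.06 to 0.08. These values cannot show whether the numbers pair cultures, and the labels do not say. The replicate block gave 4 of the 5 genes called in JNKKO dimerizer against JNKKO control and 5 in the interaction with TGF-β1, as without it, and changed no call of the 5 genes. Depth limits SERPINB2 most, as its counts are the lowest of the 5 genes.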
